A study of Mus musculus with 20 samples.

Results

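The *Cyp2c* family was followed here in mouse liver through 10 of its genes, *Cyp2c29*, *Cyp2c37*, *Cyp2c38*, *Cyp2c39*, *Cyp2c44*, *Cyp2c50*, *Cyp2c54*, *Cyp2c67*, *Cyp2c68* and *Cyp2c70*. They were taken by symbol from the 54532 genes of the count table, from a list of 10 symbols that was drawn up with earlier results of these data known and that leaves out *Cyp2c55*, *Cyp2c40* and *Cyp2c69*, described further on. All 10 passed the filter on low counts that left 12289 genes for testing. The annotation lists *Cyp2c44* under its other symbol, *Cyp2c23*. Male C57BL/6J mice made obese by 12 weeks of high-fat diet (HFD) underwent Roux-en-Y gastric bypass (RYGB) or a sham operation, after which they ate chow or HFD through the last 8 weeks. The 4 groups, RYGB HFD and Sham HFD, RYGB Chow and Sham Chow, each held 5 mice drawn at random from a larger cohort, with 1 poly-A liver library per mouse. All mice thus shared the earlier HFD, and no lean, never-obese group was included. Sham HFD mice were also the heaviest group according to the study's methods, so in comparisons with that group the diet or operation cannot be told apart from body weight.

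Cytochrome P450 enzymes of the 2C subfamily sit in the endoplasmic reticulum of hepatocytes, take electrons from P450 oxidoreductase, and oxidise drugs, steroids, retinoids and polyunsaturated fatty acids. Several turn arachidonic acid into epoxyeicosatrienoic acids, lipid mediators that soluble epoxide hydrolase (*Ephx2*) removes, and *Cyp2c70* makes the muricholic acids that set mouse bile apart from human bile. The genes are a classic target of the nuclear receptors CAR (*Nr1i3*) and PXR (*Nr1i2*), and many P450s of mouse liver differ between the sexes through growth hormone.

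All 10 genes lie on chromosome 19 of the mouse genome (build GRCm38, GENCODE M21). *Cyp2c29* (ENSMUSG00000003053, chr19:39269405-39330713, plus strand) opens the stretch, followed by *Cyp2c38* (chr19:39389556-39463075, minus strand), *Cyp2c39* (chr19:39510862-39568529, plus strand), *Cyp2c67* (chr19:39608842-39649051, minus strand) and *Cyp2c68* (chr19:39688834-39741054, minus strand). After a gap come *Cyp2c37* (chr19:39992424-40012243, plus strand), *Cyp2c54* (chr19:40037940-40073827, minus strand), *Cyp2c50* (chr19:40089688-40113950, plus strand) and *Cyp2c70* (chr19:40153353-40187333, minus strand). *Cyp2c44* stands apart at chr19:44005022-44029208 on the minus strand.

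The coding sequences fell into near-identical sets. *Cyp2c67* and *Cyp2c68* shared 97.2% of aligned coding bases, *Cyp2c37* and *Cyp2c50* 96.1%, *Cyp2c50* and *Cyp2c54* 95.2%, and *Cyp2c38* and *Cyp2c39* 94.2%. *Cyp2c29* stood closest to *Cyp2c39*, with 89.5%. Such likeness can blur read counts, so each stretch of 150 bases, the length of a read, was looked up in all other transcripts. *Cyp2c67* had 13.0% of its stretches also present elsewhere and *Cyp2c68* 8.83%, in both cases mostly in *Cyp2c40*. The shares were 2.99% for *Cyp2c54*, 1.78% for *Cyp2c50*, 0.299% for *Cyp2c37* and 0 for the other 5 members. How reads that map to several genes were counted is not given in the sources used here, so values of *Cyp2c67* and *Cyp2c68* carry that uncertainty, and *Cyp2c29* shares 142 exon bases with the pseudogene *Cyp2c53-ps* on the same strand.

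The 250 bases before the transcription start are shown for 5 members, because 3 of them are close relatives that differed in opposite directions in Sham Chow vs. Sham HFD and the other 2 are the most similar pair of the family. Sequences are from RefSeq (GRCm38.p6). The set of promoter windows used here held 8 of the 10 members and lacked *Cyp2c54* and *Cyp2c44*. Capitals mark matches to the motifs searched on both strands.
Cyp2c29 (chr19:39286835-39287084, plus strand): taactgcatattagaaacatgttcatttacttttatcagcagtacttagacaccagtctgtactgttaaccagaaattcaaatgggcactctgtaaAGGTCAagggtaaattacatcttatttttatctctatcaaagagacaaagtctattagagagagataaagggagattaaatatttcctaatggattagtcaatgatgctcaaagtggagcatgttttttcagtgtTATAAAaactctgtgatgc
Cyp2c38 (chr19:39463076-39463325, minus strand): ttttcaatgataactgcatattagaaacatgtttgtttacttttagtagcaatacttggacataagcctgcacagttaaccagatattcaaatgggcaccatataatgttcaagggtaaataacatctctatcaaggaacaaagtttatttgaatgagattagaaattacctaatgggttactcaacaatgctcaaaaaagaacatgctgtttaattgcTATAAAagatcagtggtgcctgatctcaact
Cyp2c39 (chr19:39510572-39510821, plus strand): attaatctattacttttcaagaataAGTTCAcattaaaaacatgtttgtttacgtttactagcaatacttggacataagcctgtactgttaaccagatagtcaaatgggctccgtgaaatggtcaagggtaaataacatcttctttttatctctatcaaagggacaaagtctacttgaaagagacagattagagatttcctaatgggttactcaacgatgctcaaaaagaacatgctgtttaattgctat
Cyp2c67 (chr19:39649043-39649292, minus strand): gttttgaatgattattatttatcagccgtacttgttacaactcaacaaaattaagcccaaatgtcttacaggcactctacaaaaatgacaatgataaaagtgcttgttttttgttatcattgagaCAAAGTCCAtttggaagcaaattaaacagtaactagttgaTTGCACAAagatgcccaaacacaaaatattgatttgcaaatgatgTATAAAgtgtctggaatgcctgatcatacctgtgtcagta
Cyp2c68 (chr19:39741102-39741351, minus strand): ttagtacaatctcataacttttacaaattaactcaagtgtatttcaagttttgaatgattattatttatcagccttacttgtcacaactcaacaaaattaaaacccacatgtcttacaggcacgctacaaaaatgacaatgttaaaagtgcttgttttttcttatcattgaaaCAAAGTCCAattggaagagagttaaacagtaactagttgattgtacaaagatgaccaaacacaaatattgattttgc

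Upstream likeness followed coding likeness. The *Cyp2c67* and *Cyp2c68* windows shared 91.6% of 202 aligned bases, *Cyp2c38* and *Cyp2c39* 89.6% of 221, *Cyp2c37* and *Cyp2c50* 87.8% of 245, and *Cyp2c29* and *Cyp2c39* 81.9% of 227. The HNF4 motif CAAAGTCCA was found in *Cyp2c67* at -125, in *Cyp2c68* at -77 and in *Cyp2c70* at -64 from the listed start, that is in 3 of 8 member windows, while 0.384% of 32841 mouse promoter windows of the same length held it. The nuclear receptor core AGGTCA was found in *Cyp2c29* at -154 and in *Cyp2c70* at -74, against 14% of all windows, and its variant AGTTCA in *Cyp2c39* and *Cyp2c50*, against 11.8%. AGGTCA repeated after 4 bases, the arrangement CAR and PXR are known to bind, was in none of the 8 windows and in 0.0152% of all, and the STAT motif TTCNNNGAA was likewise in none, against 7.02%. The letters TATAAA were in 4 of 8 windows against 12.4% of all, and the C/EBP motif TTGCNNAA in *Cyp2c67* and *Cyp2c37* against 9.57%. Each window ends at its listed start, and these starts differ between relatives. The *Cyp2c39* and *Cyp2c68* windows end within or before the stretch where *Cyp2c38* and *Cyp2c67* hold TATAAA, so a match further on would be missed. The HNF4 matches of *Cyp2c67* and *Cyp2c68* have like flanking bases, and their positions differ with the listed starts. These matches describe letters in short windows and say nothing on their own about binding.

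Total counts ran from 14604854 to 22537498 per mouse. Levels are given below as counts per 1000000 reads on tested genes (CPM), scaled by TMM, a normalisation that lines up the bulk of genes between libraries. For levels compared between genes, CPM were divided by the summed exon length in kilobases (FPKM). Differences were tested by edgeR's quasi-likelihood test in a model of all 20 mice, with Benjamini-Hochberg adjustment over the 12289 genes, and are called where the adjusted p is under 0.05. Errors beside means are SDs over 5 mice, and errors beside log2 fold changes are standard errors. RNA of whole liver was measured, so less RNA per hepatocyte and fewer hepatocytes cannot be told apart.

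The 10 genes together took 0.437% ± 0.0684 of all reads in Sham Chow and 0.465% ± 0.0776 in RYGB Chow mice, against 0.221% ± 0.0375 in Sham HFD and 0.289% ± 0.0352 in RYGB HFD mice (SD, n = 5). Each chow-fed mouse, at 0.341% or more, lay above each HFD-fed mouse, at 0.317% or less. Without *Cyp2c29* the diets overlapped, with Sham Chow mouse 2 at 0.217% of reads and RYGB HFD mouse 4 at 0.264%. Summed FPKM was 1930 ± 312 in Sham Chow and 2005 ± 414 in RYGB Chow, and on HFD it was 896 ± 145 after the sham operation and 1342 ± 175 after RYGB. Per kilobase, the mean family sum in RYGB HFD mice thus lay between those of the other HFD group and the chow groups. Single mice overlapped. RYGB HFD mouse 1 (1063) was below Sham HFD mouse 4 (1068), and RYGB HFD mouse 5 (1490) was above RYGB Chow mouse 3 (1360).

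**Figure D1:**
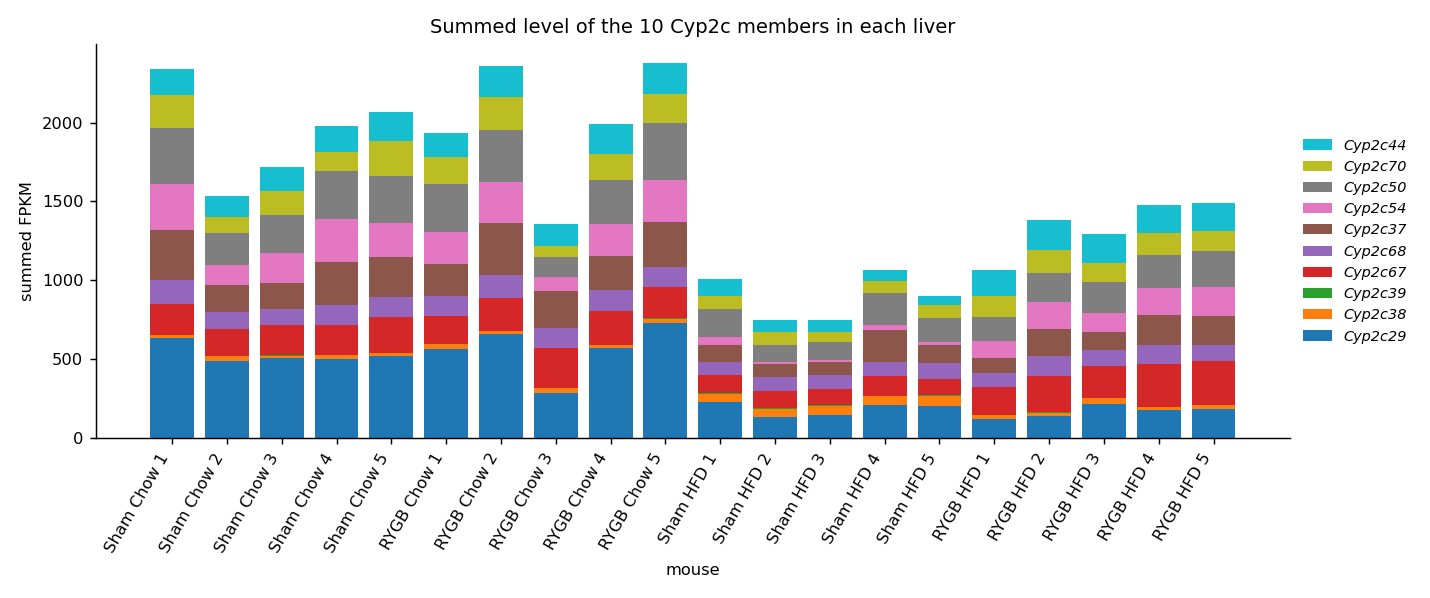
Summed FPKM (vertical axis) of the 10 *Cyp2c* members in each of the 20 livers (horizontal axis), stacked by gene. The bars of the 5 Sham HFD mice are the shortest on average, and the bottom segment, *Cyp2c29*, is smaller in HFD-fed than in chow-fed mice.

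Within the family, *Cyp2c29* ranked first per kilobase in Sham Chow (531 ± 60.6 FPKM), RYGB Chow (562 ± 169) and Sham HFD mice (185 ± 41.2). In Sham Chow its lowest mouse was above the highest mouse for *Cyp2c50* (281 ± 60.2), the second in rank, whereas in RYGB Chow and Sham HFD the ranges of these genes overlapped. In Sham Chow the genes from *Cyp2c50* down to *Cyp2c68* (122 ± 18.0) overlapped each with its neighbour in rank. *Cyp2c38* and *Cyp2c39* were the lowest in chow-fed mice, at 21.01 ± 6.93 and 1.51 ± 0.408 FPKM in Sham Chow. In RYGB HFD mice *Cyp2c67* led (233 ± 43.5 FPKM), followed by *Cyp2c50* (197 ± 27.6), *Cyp2c44* (179 ± 11.7) and only then *Cyp2c29* (167 ± 39.1), with overlapping ranges between neighbours. The annotation includes non-coding transcripts of *Cyp2c29* and *Cyp2c50* that lengthen the exon sum and lower the values per kilobase. By the length of the longest protein-coding transcript, *Cyp2c29* reached 911 ± 104 FPKM in Sham Chow and 287 ± 67.1 in RYGB HFD, and the order in RYGB HFD was *Cyp2c50* (317 ± 44.4), *Cyp2c29* and then *Cyp2c67*, so the leading gene there depends on the length used, a choice of length made after the values were seen. The lead in Sham HFD also turned with the length, since by the longest transcript of any kind *Cyp2c50* was first there (244 ± 62.7 FPKM) and *Cyp2c29* second (201 ± 44.6).

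**Figure D2:**
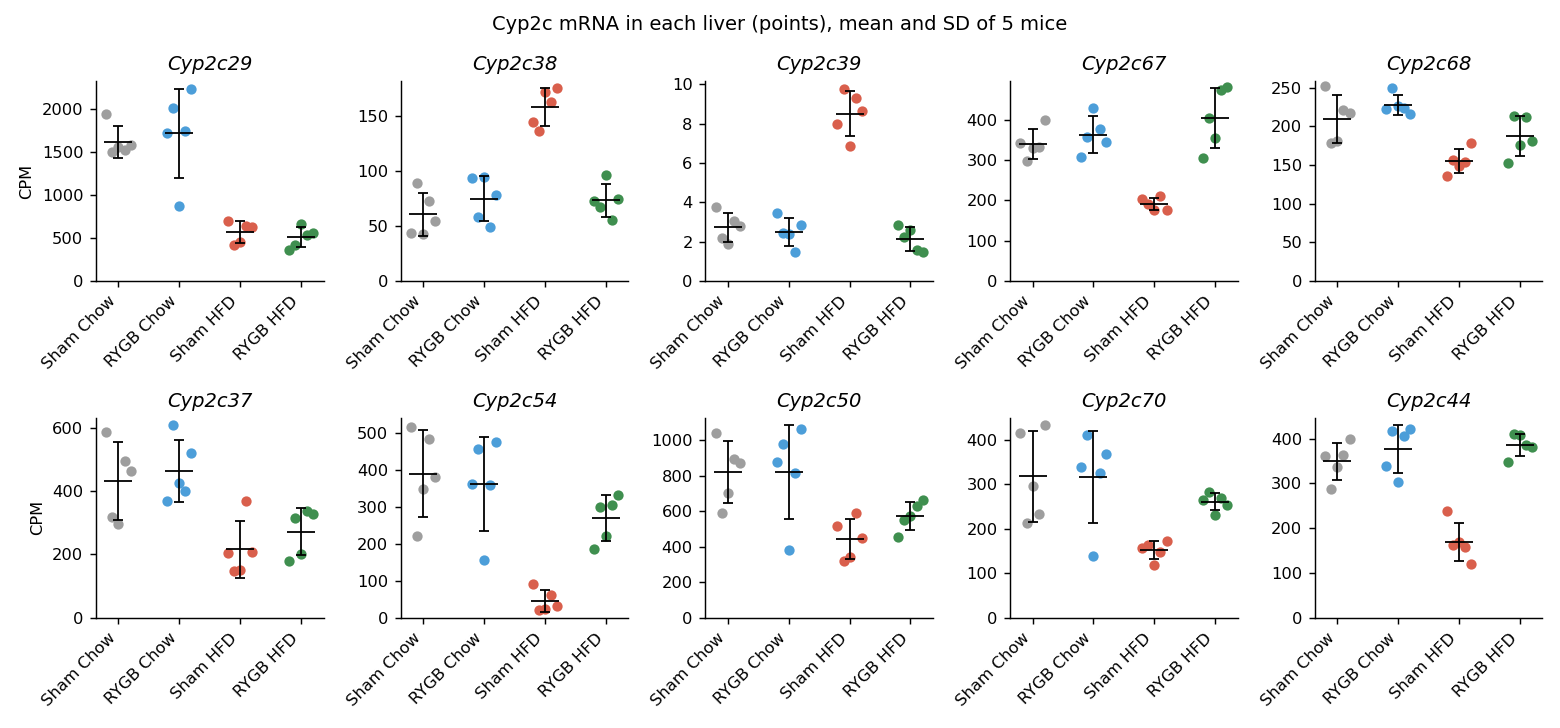
CPM of each *Cyp2c* gene (vertical axes, linear from 0) by group (horizontal axes). Points are mice and bars are the mean and SD of 5 mice. *Cyp2c38* and *Cyp2c39* are highest in Sham HFD, *Cyp2c29* is low in both HFD groups, and *Cyp2c54*, *Cyp2c44*, *Cyp2c67* and *Cyp2c70* are low in Sham HFD.

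On chow, the comparison of Sham Chow vs. RYGB Chow asked whether the operation itself went with another level of these enzymes once diet was the same. By edgeR, 0 of 10 members passed in either direction, 0 of 10 had an unadjusted p under 0.05, and DESeq2 and limma-voom also called 0. Over all genes tested, 0.0488% were called higher and 0.00814% lower, and 10.8% had an unadjusted p under 0.05. No member's groups were free of overlap, against 1.33% of all genes. Log2 fold changes ran from -0.13 for *Cyp2c39* to 0.31 for *Cyp2c38*, with adjusted p between 0.614 and 0.995. The 95% intervals of the differences show what was not resolved: from -0.31 to 0.48 for *Cyp2c29*, from -0.13 to 0.32 for *Cyp2c67* and from -0.78 to 0.57 for *Cyp2c54*. RYGB Chow mouse 3 was the lowest of its group for *Cyp2c29* (877 CPM), *Cyp2c50* (379), *Cyp2c54* (155), *Cyp2c70* (139) and *Cyp2c44* (303), while its *Cyp2c67* (430.1) was the highest of the group. The TMM factor of this mouse (1.13) was the highest of all 20, so its library departed from the others beyond these genes.

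In sham-operated mice HFD went with a different level of the whole family. All 10 members passed in Sham Chow vs. Sham HFD, 8 of them lower and 2 higher, where 10.7% of all genes tested were called lower and 10.9% higher. The median log2 fold change of the members was -0.94, and that of all genes was -0.00467. Groups did not overlap for 8 of 10 members, against 16.5% of all genes, the exceptions being *Cyp2c37* and *Cyp2c50*. In RYGB mice the same difference in diet gave 1 member lower, *Cyp2c29*, and 0 higher, where 1.65% of all genes were called lower and 1.99% higher. There, 4 members had an unadjusted p under 0.05, and DESeq2 and limma-voom each called 1 lower and 0 higher. Groups did not overlap for 3 members, *Cyp2c29*, *Cyp2c37* and *Cyp2c68*, against 5.05% of all genes. The gap between these diet differences, tested as the surgery by diet interaction, passed for 5 members. Of these, 3 were positive (*Cyp2c54*, *Cyp2c44* and *Cyp2c67*) and 2 negative (*Cyp2c38* and *Cyp2c39*). Over all genes, 2.48% were called positive and 2.58% negative. The study judged factorial designs unsuitable, mainly because of the heavier Sham HFD mice. The interaction includes those mice, so it cannot be told apart from body weight.

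Among HFD-fed mice, Sham HFD vs. RYGB HFD gave 4 members higher after RYGB (*Cyp2c44*, *Cyp2c54*, *Cyp2c67* and *Cyp2c70*) and 2 lower (*Cyp2c38* and *Cyp2c39*), where 8.54% of all genes were called higher and 7.9% lower. Groups did not overlap for these 6 members, against 14.7% of all genes. This comparison and Sham Chow vs. Sham HFD share the Sham HFD mice, so a gene that is off in those mice enters both. In this sense 4 of 10 members were lower in Sham HFD than in both Sham Chow and RYGB HFD, where 4.68% of all genes were, and 2 were higher than in both, where 4.15% were. *Cyp2c29* was lower on HFD in sham and in RYGB mice alike, a pattern of 0.521% of all genes.

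**Figure D3:**
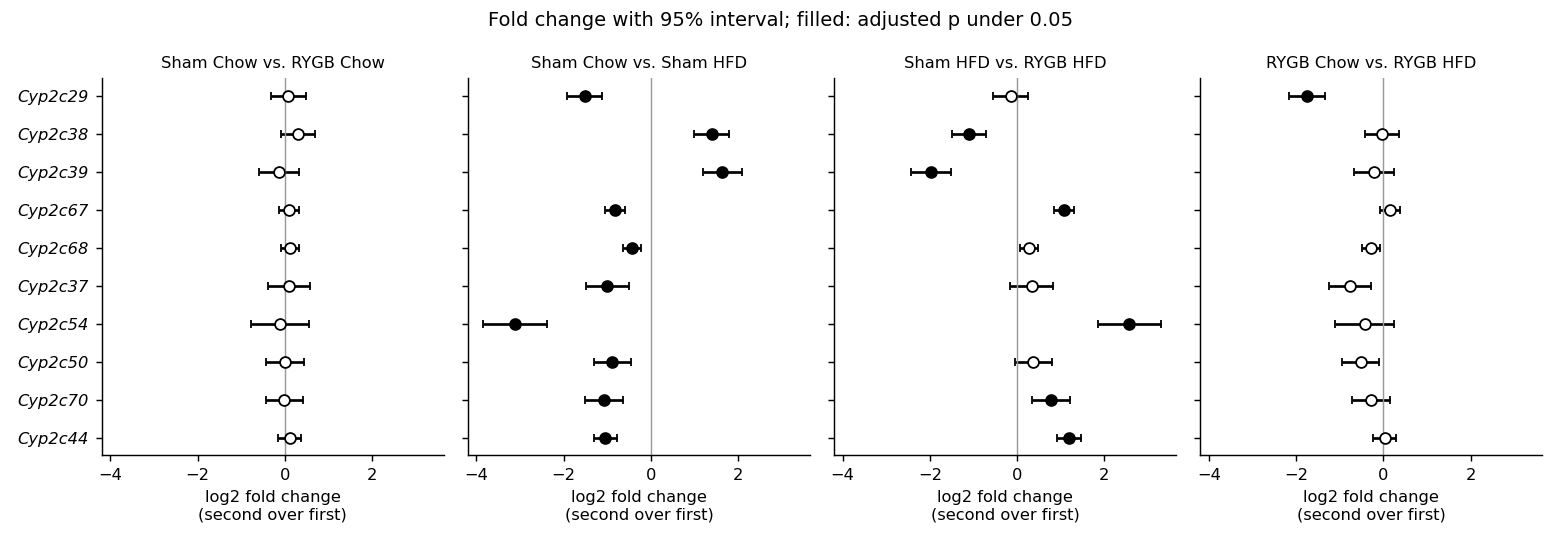
Log2 fold changes (horizontal axes, second group over first) of the 10 members in the 4 comparisons, with 95% intervals. Filled points passed an adjusted p under 0.05. No point is filled for Sham Chow vs. RYGB Chow, all 10 are for Sham Chow vs. Sham HFD, 6 for Sham HFD vs. RYGB HFD, and *Cyp2c29* alone for RYGB Chow vs. RYGB HFD.

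*Cyp2c29*, an arachidonic acid epoxygenase and a standard readout of CAR activity in mouse liver, had the most reads of all members in every group but RYGB HFD. Its level in Sham Chow mice 1 to 5 was 1951, 1498, 1557, 1529 and 1588 CPM, and in RYGB Chow mice 1722, 2021, 877, 1753 and 2233 CPM. Sham HFD mice had 703, 417, 449.8, 638 and 627 CPM, and RYGB HFD mice had 365, 422, 667, 539.8 and 563 CPM. Every HFD-fed mouse was below every chow-fed mouse, with or without RYGB. The gene was 2.87-fold lower in Sham HFD than in Sham Chow (log2 fold change -1.52 ± 0.21, adjusted p = 4.34e-05) and 3.37-fold lower in RYGB HFD than in RYGB Chow (-1.75 ± 0.21, adjusted p = 4.47e-05). The interaction was not called (-0.23 ± 0.29, 95% interval -0.79 to 0.33, adjusted p = 0.692), nor was Sham HFD vs. RYGB HFD (-0.15 ± 0.20, interval -0.54 to 0.25, adjusted p = 0.662).

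*Cyp2c38* and *Cyp2c39*, the nearest relatives of *Cyp2c29* in coding sequence and upstream bases, had the opposite sign in Sham Chow vs. Sham HFD. *Cyp2c38*, an epoxygenase of low abundance, was at 43.7, 88.6, 42.4, 72.3 and 54.3 CPM in Sham Chow mice, at 144, 136, 172, 162 and 175 in Sham HFD mice, at 72.8, 67.0, 96.5, 55.4 and 74.6 in RYGB HFD mice, and between 49.2 and 94.6 in RYGB Chow. All Sham HFD mice lay above all 15 others. It was 2.62-fold higher in Sham HFD than in Sham Chow (log2 1.39 ± 0.20, adjusted p = 9.48e-05), and RYGB HFD mice had 2.15-fold less of it than Sham HFD mice (-1.11 ± 0.20, adjusted p = 0.000801). RYGB Chow vs. RYGB HFD gave -0.03 ± 0.20 (interval -0.42 to 0.37), and the interaction was -1.41 ± 0.29 (adjusted p = 0.00711).

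*Cyp2c39*, a hydroxylase of retinoic acid, was scarce, with 22 to 211 reads per mouse. It was at 3.77, 2.17, 1.90, 3.07 and 2.79 CPM in Sham Chow, at 8.00, 9.76, 6.84, 9.29 and 8.64 in Sham HFD, and at 2.83, 2.24, 2.59, 1.60 and 1.46 in RYGB HFD. Again all Sham HFD mice lay above all others, since RYGB Chow mice ranged from 1.47 to 3.43 CPM. The gene was 3.11-fold higher in Sham HFD than in Sham Chow (log2 1.64 ± 0.23, adjusted p = 4.94e-05) and 3.94-fold lower in RYGB HFD than in sham-operated HFD mice (-1.98 ± 0.23, adjusted p = 9.45e-06), and its interaction was the most negative of the family (-1.85 ± 0.33, adjusted p = 0.00291).

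Relative levels within this set show in ratios taken inside each liver, which do not depend on scaling between libraries. *Cyp2c38* had 0.0381 ± 0.0151 reads per *Cyp2c29* read in Sham Chow and 0.0507 ± 0.0336 in RYGB Chow mice. On HFD it had 0.289 ± 0.0678 in sham-operated and 0.148 ± 0.0357 in RYGB mice. In RYGB mice the higher ratio on HFD went with less *Cyp2c29*, as *Cyp2c38* itself was not called there (adjusted p = 0.968). Its share of the summed family FPKM was 1.14% ± 0.534 in Sham Chow mice, 6.26% ± 1.20 in Sham HFD mice and 1.94% ± 0.532 in RYGB HFD, while that of *Cyp2c29* was 27.8% ± 2.89, 20.5% ± 2.09 and 12.5% ± 2.60. *Cyp2c29* thus held its smallest share of the family in RYGB HFD livers, where no mouse (9.98% to 16.8%) reached the lowest Sham HFD mouse (18.1%).

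*Cyp2c54*, *Cyp2c50* and *Cyp2c37* are neighbours with over 95% of coding bases in common, and their products oxidise arachidonic and linoleic acid. *Cyp2c54* had the largest change of the family in Sham Chow vs. Sham HFD and in Sham HFD vs. RYGB HFD. It stood at 516, 222, 348, 484 and 381 CPM in Sham Chow and at 361, 456, 155, 359 and 475 CPM in RYGB Chow mice. Sham HFD mice had 89.9, 21.1, 24.2, 61.2 and 30.5 CPM, and RYGB HFD mice 185, 299.7, 222, 304 and 332 CPM. All 5 Sham HFD mice were below all others, and the other 3 groups overlapped. The gene was 8.62-fold lower in Sham HFD than in Sham Chow (log2 -3.11 ± 0.38, adjusted p = 1.29e-05) and 5.93-fold higher in RYGB HFD than in Sham HFD (2.57 ± 0.37, adjusted p = 7.54e-05). RYGB Chow vs. RYGB HFD was not called (-0.43 ± 0.35, interval -1.11 to 0.25, adjusted p = 0.546), and the interaction was 2.68 ± 0.50 (adjusted p = 0.00428).

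*Cyp2c50* moved less, at 819 ± 176 CPM in Sham Chow and 824 ± 265 in RYGB Chow mice, against 445 ± 114 in Sham HFD and 574 ± 80.4 in RYGB HFD mice. It was 1.84-fold lower in Sham HFD than in Sham Chow (adjusted p = 0.00734), though Sham HFD mouse 4 (592) was just above Sham Chow mouse 2 (589). Sham HFD vs. RYGB HFD (log2 0.37 ± 0.22, interval -0.06 to 0.80, adjusted p = 0.267) and RYGB Chow vs. RYGB HFD (-0.52 ± 0.22, adjusted p = 0.199) were not called. The latter rests on RYGB Chow mouse 3, without which it was -0.71 with an adjusted p of 0.0293.

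*Cyp2c37* was at 432 ± 123 CPM in Sham Chow and 464 ± 98.5 in RYGB Chow mice, against 216 ± 90.0 in Sham HFD and 272 ± 75.2 in RYGB HFD mice. It was 2.00-fold lower in Sham HFD than in Sham Chow (log2 -0.998 ± 0.25, adjusted p = 0.00727), with Sham HFD mouse 4 (369 CPM) above 2 Sham Chow mice. In RYGB mice all HFD values (179 to 337) lay below all chow values (368 to 607), yet the test missed the threshold (-0.77 ± 0.25, adjusted p = 0.0857). Without Sham HFD mouse 4, which enters that comparison only through the shared spread, its adjusted p was 0.0463.

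Reads of *Cyp2c54* per read of *Cyp2c50* or of *Cyp2c37* were lowest on average in Sham HFD. *Cyp2c54* had 0.469 ± 0.0643 reads per *Cyp2c50* read in Sham Chow, 0.435 ± 0.0241 in RYGB Chow and 0.465 ± 0.0651 in RYGB HFD mice, but 0.0963 ± 0.0460 in Sham HFD mice. The highest Sham HFD mouse (0.174) was below the lowest mouse of each other group. Per *Cyp2c37* read, *Cyp2c54* had 0.911 ± 0.180 reads in Sham Chow, 0.782 ± 0.247 in RYGB Chow and 1.00 ± 0.0757 in RYGB HFD, against 0.211 ± 0.127 in Sham HFD, where 1 mouse (0.438) was above the lowest RYGB Chow mouse (0.366).

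**Figure D4:**
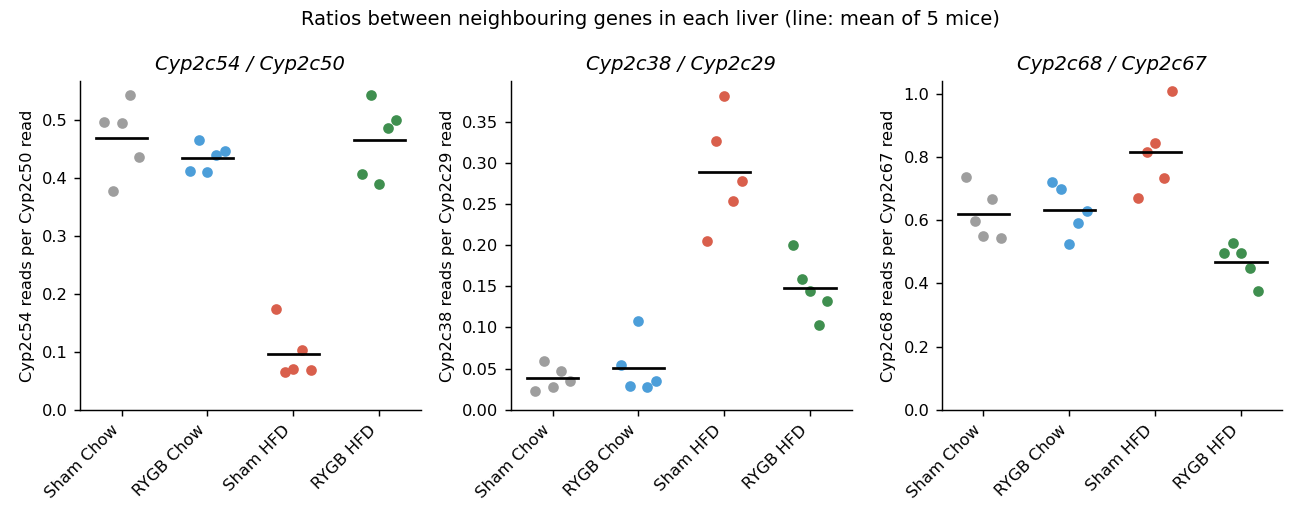
Reads of 1 gene per read of a related gene (vertical axes, linear from 0) in each liver by group (horizontal axes), with lines at group means. *Cyp2c54* per *Cyp2c50* is low in the 5 Sham HFD mice alone, *Cyp2c38* per *Cyp2c29* is highest there, and *Cyp2c68* per *Cyp2c67* is lowest on average in RYGB HFD.

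*Cyp2c67* and *Cyp2c68* encode close relatives of *Cyp2c40* whose substrates are less well described. *Cyp2c67* was at 343, 299, 329, 331 and 400.5 CPM in Sham Chow mice, at 203, 191, 176, 210.0 and 177 in Sham HFD mice, and at 306, 405, 355, 474 and 481 in RYGB HFD mice, with RYGB Chow mice between 308 and 430.1. Sham HFD mice were below all others. It was 1.78-fold lower in Sham HFD than in Sham Chow (log2 -0.83 ± 0.12, adjusted p = 5.76e-05), 2.11-fold higher in RYGB HFD than in Sham HFD (1.08 ± 0.12, adjusted p = 5.83e-06), and its interaction was 0.99 ± 0.16 (adjusted p = 0.00200).

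*Cyp2c68*, 97.2% identical to it, had the smallest change of the family in Sham Chow vs. Sham HFD, from 210.2 ± 31.1 CPM in Sham Chow to 155 ± 15.5 in Sham HFD (1.36-fold lower, log2 -0.44 ± 0.10, adjusted p = 0.00492). RYGB HFD mice (187 ± 26.0 CPM) overlapped Sham HFD mice (log2 0.28 ± 0.10, adjusted p = 0.0755) and lay below RYGB Chow mice (227 ± 12.8) without overlap but without a call (-0.28 ± 0.10, adjusted p = 0.142). The first of these comparisons passed without Sham HFD mouse 5 (adjusted p = 0.0483) or RYGB HFD mouse 1 (0.0281). *Cyp2c68* reads per *Cyp2c67* read were 0.620 ± 0.0832 in Sham Chow and 0.634 ± 0.0801 in RYGB Chow, and on HFD they were 0.816 ± 0.129 after the sham operation and 0.469 ± 0.0591 after RYGB. Reads that either gene could share with *Cyp2c40* or with the other bear on this ratio, and their part was not tested.

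*Cyp2c44*, an epoxygenase encoded far from the others and the most distant in coding sequence (60.2% to 64.7% identity to the others), was at 361, 287, 337, 364 and 399 CPM in Sham Chow and at 338, 417, 303, 406 and 422 CPM in RYGB Chow mice. On HFD it was at 237, 162, 170.0, 158 and 119 CPM in sham-operated and at 347, 409.8, 407, 385 and 380.2 CPM in RYGB mice. Sham HFD mice lay below all others, which overlapped. It was 2.06-fold lower in Sham HFD than in Sham Chow (log2 -1.05 ± 0.14, adjusted p = 2.94e-05) and 2.28-fold higher in RYGB HFD than in Sham HFD (1.19 ± 0.14, adjusted p = 9.45e-06). RYGB Chow vs. RYGB HFD gave 0.03 ± 0.14 (interval -0.23 to 0.30), and the interaction was 1.08 ± 0.19 (adjusted p = 0.00299).

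*Cyp2c70*, the muricholic acid enzyme, was at 416, 213, 295, 232 and 433 CPM in Sham Chow and at 339, 410.0, 139, 326 and 367 CPM in RYGB Chow mice. On HFD it was at 155, 164, 119, 148 and 171 CPM in sham-operated and at 264, 281, 231, 269.8 and 253 CPM in RYGB mice. Sham HFD mice lay below the Sham Chow and RYGB HFD mice, though RYGB Chow mouse 3 (139) fell among them. The gene was 2.098-fold lower in Sham HFD than in Sham Chow (log2 -1.07 ± 0.22, adjusted p = 0.00200) and 1.72-fold higher in RYGB HFD than in Sham HFD (0.78 ± 0.22, adjusted p = 0.0186), the latter with an adjusted p of 0.0568 without Sham HFD mouse 3. Its interaction was not called (0.79 ± 0.31, adjusted p = 0.147).

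*Cyp2c38* and *Cyp2c39*, the only members higher in Sham HFD than in Sham Chow, are neighbours on the chromosome. They lie between *Cyp2c29* and *Cyp2c67*, both lower. *Cyp2c54*, with the largest fall, lies between *Cyp2c37* and *Cyp2c50*, which fell less. Whether position goes with direction was not tested.

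**Figure D5:**
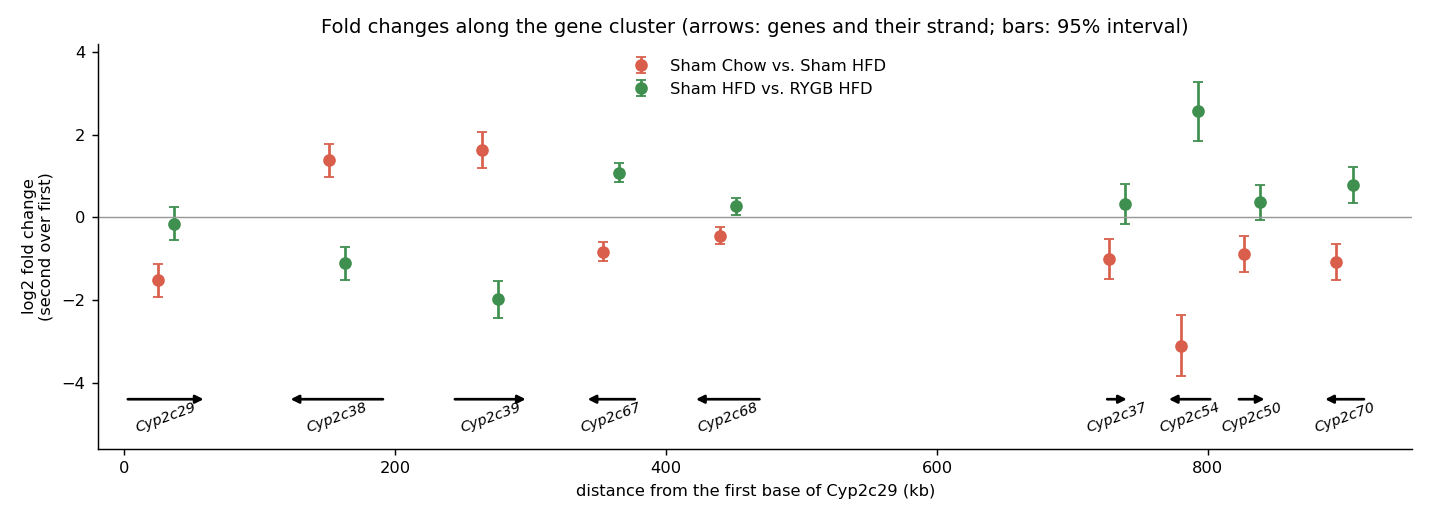
Log2 fold changes (vertical axis, second group over first, with 95% intervals) of 9 members against distance in kilobases from the first base of *Cyp2c29* (horizontal axis). Arrows show each gene and its strand. In Sham Chow vs. Sham HFD *Cyp2c38* and *Cyp2c39* are the only genes above 0, in Sham HFD vs. RYGB HFD they are the lowest with *Cyp2c29* at -0.15, and *Cyp2c54* has the largest changes.

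The table holds 8 further *Cyp2c* genes and pseudogenes, of which *Cyp2c55*, *Cyp2c40* and *Cyp2c69* were tested and the other 5 were below the filter. *Cyp2c55*, like *Cyp2c29*, was lower on HFD in both arms, from 13.2 ± 1.48 CPM in Sham Chow to 2.25 ± 0.823 in Sham HFD (log2 -2.57 ± 0.38, adjusted p = 9.21e-05) and from 17.2 ± 9.31 in RYGB Chow to 1.16 ± 0.421 in RYGB HFD (-3.88 ± 0.41, adjusted p = 1.10e-05). *Cyp2c40* was lower in Sham HFD than in Sham Chow (-2.77 ± 0.78, adjusted p = 0.0157) and higher in RYGB HFD than in Sham HFD (2.73 ± 0.78, adjusted p = 0.0204), and *Cyp2c69* likewise (-2.96 ± 1.01, adjusted p = 0.0416, and 3.91 ± 0.98, adjusted p = 0.00871). Both varied widely among mice of a group, with *Cyp2c40* between 0.509 and 13.2 CPM in Sham Chow, and overlapped between the groups compared.

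Among 16 receptors and factors that are known to act on *Cyp2c* genes, all tested, 0 were called higher and 2 lower in Sham Chow vs. Sham HFD, where 10.7% of all genes were called lower, the hepatocyte factor *Hnf4a* (log2 -0.43, adjusted p = 0.0267) and *Cebpa* (-0.30, adjusted p = 0.0156), with 6 at an unadjusted p under 0.05. DESeq2 called 1 higher and 3 lower there. In Sham HFD vs. RYGB HFD 2 were higher, where 8.54% of all genes were, *Hnf4a* (0.49, adjusted p = 0.0166) and the dimer partner *Rxra* (0.29, adjusted p = 0.0245), and 0 lower, while DESeq2 called 4 higher and limma-voom 3. In RYGB Chow vs. RYGB HFD edgeR called 0, with 3 at an unadjusted p under 0.05, and DESeq2 called 1 lower. The list's medians were -0.07, 0.11 and 0.13 in these comparisons. *Nr1i3*, which encodes CAR, gave 0.15 in Sham Chow vs. Sham HFD (adjusted p = 0.624) and 0.11 in RYGB Chow vs. RYGB HFD (0.823), and *Nr1i2*, which encodes PXR, gave -0.29 (0.156) and -0.08 (0.84). *Foxa2*, *Cebpb*, *Nr3c1*, *Ppara*, *Nr1h4*, *Nr0b2*, *Rora*, *Stat5b* and *Onecut1* were not called in any comparison, with log2 fold changes from -1.65 for *Onecut1* to 0.55 for *Nr0b2* in Sham Chow vs. Sham HFD and from -0.0473 for *Ppara* to 0.86 for *Onecut1* in Sham HFD vs. RYGB HFD.

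Other genes known to respond to CAR and PXR split. Of 23 tested, 6 were higher and 6 lower in Sham Chow vs. Sham HFD. In Sham HFD vs. RYGB HFD 3 were higher and 12 lower, and in RYGB Chow vs. RYGB HFD 0 higher and 11 lower. The medians were -0.06, -0.74 and -1.03. For this list and those below, the shares of all genes called higher and lower were 10.9% and 10.7% in the first comparison. They were 8.54% and 7.9% in the second, and 1.99% and 1.65% in the third. *Cyp3a11*, the main PXR target P450, was lower on HFD in both arms as *Cyp2c29* was, with -2.76 in sham (adjusted p = 5.33e-08) and -3.67 in RYGB mice (adjusted p = 2.06e-09). *Cyp2b10*, a standard CAR target, was called lower in the same comparisons and in Sham HFD vs. RYGB HFD, with chow means of 10.4 CPM in sham-operated and 2.098 CPM in RYGB mice, and HFD means of 1.85 and 0.0118 CPM. *Cyp2b9*, a P450 gene typical of female liver, was higher in Sham HFD than in Sham Chow and RYGB HFD as *Cyp2c38* and *Cyp2c39* were, with means of 259.6, 6.17 and 7.59 CPM. *Cyp2b13*, also typical of females, had 7.59 CPM in Sham HFD, 0.144 in Sham Chow, 0.0327 in RYGB Chow and no read in RYGB HFD mice. It was called in both comparisons, but it passed the filter on low counts through Sham HFD mice alone. Its calls against that group are thus not independent of the filter. Higher in RYGB HFD than in Sham HFD were the sulfotransferase gene *Sult2a8* (0.79, adjusted p = 0.00112) and the carboxylesterase gene *Ces2a* (0.51, adjusted p = 0.019). *Ces2a* was also lower on HFD in both arms as *Cyp2c29* was, with -2.31 in sham (adjusted p = 6.6e-09) and -1.71 in RYGB mice (adjusted p = 9.61e-07). The glutathione transferase gene *Gsta1* (-3.52, adjusted p = 0.00164) and *Cyp2a4* (-3.30, adjusted p = 0.0245) were lower in RYGB HFD than in RYGB Chow mice.

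The P450 reaction needs electrons and haem. Of 10 electron donors and haem genes tested, 1 was higher and 3 lower in Sham Chow vs. Sham HFD, with *Por*, the P450 oxidoreductase, at -0.70 (adjusted p = 0.00644), *Alas1*, the entry enzyme of haem synthesis, at -1.11 (adjusted p = 0.036), *Fech*, its last enzyme, at -0.24 (adjusted p = 0.015), and *Hmox1*, which breaks haem down, at 0.78 (adjusted p = 0.00573). Between the HFD groups 1 was higher and 4 lower after RYGB, with *Hmox1* at -0.69 (adjusted p = 0.0145), the haem-binding partners of P450s *Pgrmc2* at -0.56 (adjusted p = 0.000133) and *Pgrmc1* at -0.52 (adjusted p = 0.000112), the cytochrome b5 gene *Cyb5b* at -0.52 (adjusted p = 0.00243), and *Hmox2* at 0.40 (adjusted p = 0.0264). In RYGB Chow vs. RYGB HFD 1 was lower, again *Pgrmc1* (-0.45, adjusted p = 0.00205). *Por* gave 0.44 (adjusted p = 0.0888) and -0.53 (adjusted p = 0.0897) in these comparisons, and *Cyb5a* and *Cyb5r3* were called in none. The medians were -0.13, -0.14 and -0.18.

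Of 14 other genes of arachidonic acid oxidation and epoxide removal, 6 were lower and 0 higher in Sham Chow vs. Sham HFD, 3 higher and 1 lower in Sham HFD vs. RYGB HFD, and 0 higher and 3 lower in RYGB Chow vs. RYGB HFD, with medians of -0.42, 0.26 and -0.17. The hydroxylase genes *Cyp4a12a* and *Cyp4a12b* are expressed mainly in males. *Cyp4a12a* had 236 CPM in Sham Chow and 40.2 CPM in Sham HFD (log2 -2.55, adjusted p = 2.75e-05), and was lower in RYGB HFD than in RYGB Chow (-1.76, adjusted p = 0.00373). *Cyp4a12b* had 1.80 CPM in Sham HFD mice, against 66.2 CPM in Sham Chow mice (log2 -5.28, adjusted p = 1.69e-05) and 27.7 CPM in RYGB HFD mice (4.02, adjusted p = 0.000236). *Cyp4a10* was lower in Sham HFD than in Sham Chow (-1.13, adjusted p = 0.00328), *Cyp4f13* was higher in RYGB HFD than in Sham HFD (0.46, adjusted p = 0.000368), and *Cyp2j9* was lower in RYGB HFD than in RYGB Chow (-0.86, adjusted p = 0.0196). *Cyp4f14*, a fatty acid hydroxylase gene, was at 286 CPM in Sham Chow mice, 142 in Sham HFD mice and 281 in RYGB HFD mice, with adjusted p of 8.74e-05 and 0.000113 for the steps. *Ephx1*, the microsomal epoxide hydrolase, was lower in RYGB HFD than in sham-operated HFD mice (-1.51, adjusted p = 9.45e-06) and RYGB Chow mice (-1.41, adjusted p = 6.49e-05). *Ephx2* gave -0.16 in Sham Chow vs. Sham HFD, 0.16 in Sham HFD vs. RYGB HFD and 0.14 in RYGB Chow vs. RYGB HFD, none called.

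Of 12 bile acid synthesis genes tested beside *Cyp2c70*, 2 were higher and 2 lower in Sham Chow vs. Sham HFD, and 3 higher and 3 lower in Sham HFD vs. RYGB HFD, with medians of -0.10 and -0.01. In RYGB Chow vs. RYGB HFD edgeR, DESeq2 and limma-voom called 0, with 3 at an unadjusted p under 0.05. The alternative-pathway enzymes *Cyp7b1* (-1.86 and then 1.60) and *Cyp27a1* (-0.68 and then 0.49) had the signs of *Cyp2c70*. *Hsd17b4* (0.30) and *Scp2* (0.20), of peroxisomal side-chain shortening, were higher in Sham HFD than in Sham Chow, and *Cyp46a1* (-1.04) and *Cyp8b1* (-0.78) were lower after RYGB among HFD-fed mice, while *Cyp7a1*, the rate-limiting enzyme of the classic pathway, was not called (-0.18 and 0.69). Of 21 other P450s of family 2 tested, 5 were higher and 4 lower in Sham Chow vs. Sham HFD, 2 higher and 6 lower in Sham HFD vs. RYGB HFD, and 0 higher and 4 lower in RYGB Chow vs. RYGB HFD. The list also holds the *Cyp2b* genes and *Cyp2a4* above. Beside them, *Cyp2g1* had 0.522 CPM in Sham HFD mice, against 1.56 CPM in Sham Chow mice (-1.57, adjusted p = 0.0452) and 1.63 CPM in RYGB HFD mice (1.66, adjusted p = 0.0408), *Cyp2e1*, the ethanol-oxidising P450, was higher in RYGB HFD than in Sham HFD (0.47, adjusted p = 0.00555), and *Cyp2a5* was lower in RYGB HFD than in RYGB Chow (-1.19, adjusted p = 0.0487). In Sham Chow vs. RYGB Chow the 6 lists had 0 calls by edgeR, DESeq2 and limma-voom, with between 0 and 6 genes of a list at an unadjusted p under 0.05.

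Likeness was measured over the 20 mice as the root mean square difference of standardised log2 CPM, where 0 is the same profile. Standardising sets the size of changes aside, so genes with unlike fold changes can be alike. The measure is a description, since the mice share their groups. Among members, *Cyp2c54* and *Cyp2c44* were the most alike (0.379), although they lie far apart and share 63.1% of coding bases, whereas *Cyp2c67* and *Cyp2c68* differed by 0.801 and *Cyp2c39* and *Cyp2c67* the most (1.958). Over all other genes, *Cyp2c29* was nearest to *Cyp2c55* (0.226). *Cyp2c44* was nearest to *Hsd3b5* (0.273), a steroid dehydrogenase typical of male liver, and *Cyp2c54* to the serpin gene *Serpina1e* (0.366). *Cyp2c67* was nearest to *Igfbp2* (0.336), which encodes a binding protein of insulin-like growth factors, and *Cyp2c70* to *Cyp1a2* (0.403). *Cyp2c38* was nearest to the fatty acid translocase gene *Cd36* (0.357), and *Cyp2c39* to *Cyp2b13* (0.391), a P450 gene typical of female liver. *Cyp2b13* was among the tested genes only through its level in Sham HFD mice. The nearest genes of *Cyp2c50*, *Cyp2c68* and *Cyp2c37* were *Nars2* (0.357), *Dvl1* (0.535) and *9530068E07Rik* (0.547). The mean profile of the members was nearest to *Cyp1a2* (0.430).

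Several marker lists of liver cells had calls in the comparisons with Sham HFD, and macrophage markers were at a higher sum on average in RYGB Chow than in Sham Chow. Over all genes, 10.9% were called higher and 10.7% lower in Sham Chow vs. Sham HFD, and 8.54% and 7.9% in Sham HFD vs. RYGB HFD. Hepatocyte markers (8 of 8 detected, among them *Alb* and *Apoa1*) summed to between 74026 and 86647 CPM in Sham HFD, 81714 and 102228 in Sham Chow, 77023 and 123351 in RYGB Chow, and 100277 and 120090 in RYGB HFD, with 0 higher and 3 lower in Sham Chow vs. Sham HFD and 4 higher and 1 lower in Sham HFD vs. RYGB HFD. In RYGB Chow vs. RYGB HFD, 1.99% of all genes were called higher and 1.65% lower. There edgeR, DESeq2 and limma-voom called 0 of the 8 hepatocyte markers, with 2 at an unadjusted p under 0.05 and a median log2 fold change of -0.02. Stellate cell markers were higher for 7 of 7 in Sham Chow vs. Sham HFD, with sums of 303 to 371 against 139 to 229 CPM, and 4 of 7 were lower in Sham HFD vs. RYGB HFD, with sums of 197 to 297. Macrophage markers were higher for 7 and lower for 1 of 10 in Sham Chow vs. Sham HFD, with sums of 286 to 372 against 127 to 303 CPM, and in Sham HFD vs. RYGB HFD edgeR, DESeq2 and limma-voom called 0 of the 10, with 1 at an unadjusted p under 0.05. In Sham Chow vs. RYGB Chow, where 0 members were called, macrophage markers had a median log2 fold change of 0.82, with sums of 254 to 573 CPM in RYGB Chow. Of these markers 9 of 10 had an unadjusted p under 0.05, where 10.8% of all genes did, and edgeR and limma-voom called 0 and DESeq2 called 3. Of 9 periportal markers 5 were lower in Sham Chow vs. Sham HFD and 0 higher, and of 10 pericentral markers 2 were lower, among them *Cyp1a2* (-1.50), and 3 higher, among them *Glul* (0.86). Endothelial and red cell markers gave 0 calls by edgeR, DESeq2 and limma-voom in either comparison, with at most 1 gene of a list at an unadjusted p under 0.05. Of the cholangiocyte, lymphocyte, pancreas and intestine lists only 2, 2, 1 and 1 genes passed the filter, of which *Spp1* and *Fabp2* were higher in Sham HFD than in Sham Chow, and *Cd79b* and *Fabp2* were lower after RYGB among HFD-fed mice. The part of these cell type differences in the *Cyp2c* results was not tested.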

How the data were processed

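Liver mRNA was sequenced in 20 mice. Per the labels and the study's methods, the authors trimmed reads with Trimmomatic 0.36, aligned them to mm10 with HISAT2 2.1.0 and counted reads per Ensembl gene with featureCounts 1.5.0-p3, and the raw counts were deposited without normalisation. The annotation release, strand setting and treatment of multi-mapping reads are not given in the sources used here. No file columns lacked a sample.

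Genes reaching a CPM of 2 in 3 or more mice entered the test with edgeR 4.0.16 (TMM factors, quasi-likelihood F test, 1 model of 4 groups, two-sided, R 4.3.3), and DESeq2 1.42.0 and limma 3.58.1 (voom) were alternatives. The fit was checked beforehand on simulated counts in which 200 genes differed. The common biological coefficient of variation was 0.1811. Nothing in the labels gave a batch. Gene positions and lengths were from GENCODE M21, and coding and upstream sequences were aligned with biopython 1.88.

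The members, lists and tests were chosen with earlier results of these data known. All members were named, and of each list and comparison of 2 groups the called genes with the largest changes in each direction (up to 4 in all), plus the receptors and electron donors. *Pgrmc1* in Sham HFD vs. RYGB HFD, *Ces2a* in the comparisons of diets, *Ephx2*, *Cyp7a1* and single cell type markers fall outside that rule. They were named after their values were seen. Likeness used log2(CPM + 0.5). Values of some listed genes and 1 motif are not reported here.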

Additional observations from a re-analysis of the deposited data

Results flagged for a closer look

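In 3 of 40 groups of 5 mice, 1 mouse stood apart from the other 4 by Dixon's criterion, which chance does in about 5% of groups. *Cyp2c29* was at 1951 CPM in Sham Chow mouse 1, where the other mice had 1498 to 1588. *Cyp2c68* was at 249.6 CPM in RYGB Chow mouse 2, against 216 to 226. *Cyp2c37* was at 369 CPM in Sham HFD mouse 4, against 149 to 207.

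The difference between HFD and chow was not the same in sham-operated and RYGB mice for 5 members by the interaction test. It includes the heavier Sham HFD mice, so surgery and body weight cannot be told apart in it. On the log2 scale, the RYGB minus sham difference was -1.41 for *Cyp2c38* and -1.85 for *Cyp2c39*, and 0.99 for *Cyp2c67*, 2.68 for *Cyp2c54* and 1.08 for *Cyp2c44*.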

How the results depend on the processing

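Across 8 alternative settings (DESeq2, limma-voom, other scaling factors, other filters, only the groups compared and a replicate block), the counts of members called equalled those given, and 387 of 390 fold changes kept their direction and call. The 3 that changed sign were uncalled values near 0 in Sham Chow vs. RYGB Chow, *Cyp2c50* by limma-voom (-0.0494) and *Cyp2c70* with library size only (0.0186), and *Cyp2c50* with the replicate block (-0.012). The 30 same-numbered pairs of mice correlated between -0.257 and 0.165 (median -0.0143), against a median of -0.00665 for 120 other pairs. Same-numbered mice were thus no more alike on average, which does not exclude a pairing, and the block changed no member's call.

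Leaving out each mouse in turn kept direction and call in 974 values, changed the sign of 21, added a call to 4 and ended 1. In Sham Chow vs. RYGB Chow the ranges that crossed 0 were -0.0266 to 0.25 for *Cyp2c29*, -0.27 to 0.0203 for *Cyp2c39*, -0.0119 to 0.24 for *Cyp2c37*, -0.26 to 0.0828 for *Cyp2c54*, -0.10 to 0.19 for *Cyp2c50* and -0.12 to 0.18 for *Cyp2c70*. In RYGB Chow vs. RYGB HFD they were -0.14 to 0.0708 for *Cyp2c38* and -0.0415 to 0.0706 for *Cyp2c44*, and the number of members called lower there ran from 1 to 2, with 2 without RYGB Chow mouse 3 or Sham HFD mouse 4. The causes were not tested.

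Over all genes, scaling by library size only shifted the median log2 fold change to 0.12 in Sham Chow vs. Sham HFD (2279 higher and 554 lower, against 1337 and 1319), to -0.08 in Sham HFD vs. RYGB HFD (542 and 1497, against 1050 and 971) and to -0.13 for the interaction (151 and 597, against 305 and 317). For Sham Chow vs. RYGB Chow, the counts of 6 higher and 1 lower compare with 66 and 26 by DESeq2, 2 and 1 by limma-voom, 10 and 3 with no filter and 0 and 0 with only those groups. In RYGB Chow vs. RYGB HFD, 245 and 203 became 399 and 352 by DESeq2, 157 and 157 with no filter and 98 and 92 with only those groups. The interaction gave 439 and 493 by DESeq2 and 201 and 246 with no filter. Scarce *Cyp2c39* (22 to 211 reads) carries the most counting error.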
